A study of Neogale vison with 6 samples.

Results

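The mRNA levels of the liver X receptors (LXR) and of a set of their sterol efflux targets were followed in mink lung Mv1Lu cells under cholesterol depletion (CD). The 10 genes were taken by symbol from the 24526 genes of the count table, and all 10 were found: the receptors NR1H3 (LXRα) and NR1H2 (LXRβ), the transporters ABCA1, ABCG1, ABCG5 and ABCG8, and the targets MYLIP, LPCAT3, APOE and SMPDL3A. They were chosen for their place in the pathway and not for their change in these samples. Mv1Lu is an established mink lung cell line, and mRNA sequencing was carried out on 3 control and 3 CD libraries. Control cells were left untreated in growth medium. CD cells received 50 μM lovastatin, a statin that blocks sterol synthesis, together with 50 μM mevalonate for 16 h, and their medium held LPDS (fetal calf serum from which lipoproteins were removed) at 10%. The drug and the change of serum came together, so that their parts in any difference cannot be told apart. Nothing in the labels says whether the replicates came from separate cultures, and the p-values measure the spread between these libraries, which may be technical.

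LXRα and LXRβ are nuclear receptors that bind DNA as partners of the retinoid X receptors and are switched on by oxysterols and by intermediates of cholesterol synthesis. When sterol is plentiful they raise the transcription of genes that export cholesterol to lipoproteins, limit its uptake and remodel membrane phospholipids, and without ligand they can hold some of these genes down through corepressors. The SREBP factors, which raise sterol synthesis and uptake when sterol is scarce, work in the opposite direction, and SREBF1 is itself a target of LXR.

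The libraries held 13473820 to 18633764 reads on genes, and 1 read stood for 0.0551 to 0.0723 CPM (counts scaled to a common library size with the TMM factors of edgeR). Between 29.3% and 47.2% of the reads were not assigned to a gene. Unmapped reads made up 18.4%, 13.6% and 4.25% in control replicates 1 to 3 and 3.54%, 4.33% and 9.37% in CD replicates 1 to 3. In CD replicate 3, 260 tested genes (2.14%) lay more than 2-fold below both other CD libraries, against 17 genes for CD replicate 1 and 5 for CD replicate 2. For some genes on which this library bears, results are given with and without it. The treatment was visible in the sterol response genes HMGCS1 and INSIG1, which rose by 3.43 and 1.67 on the log2 scale (edgeR FDR 4.17e-07 and 8.48e-06).

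Of the 10 genes, 7 had enough counts to be tested, and with edgeR's quasi-likelihood test at a false discovery rate (FDR, Benjamini-Hochberg over all 12148 tested genes) under 0.05, 2 were higher in CD, 4 were lower and 1 was not called. Both receptors rose, whereas the efflux transporters ABCA1 and ABCG1 and the targets MYLIP and LPCAT3 fell. ABCG5, ABCG8 and SMPDL3A were below the filter on low counts and are described by their counts. Among all tested genes 47.7% were called, 24.8% as higher and 22.9% as lower, so that calls in both directions were common in this comparison. The 3 control and the 3 CD values did not overlap for 7 of the 7 tested genes, and the same held for 58% of all tested genes. The median log2 fold change of the 7 genes was -0.60, against 0.06 over all tested genes. The per-library plot shows both directions side by side.

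**Figure D1:**
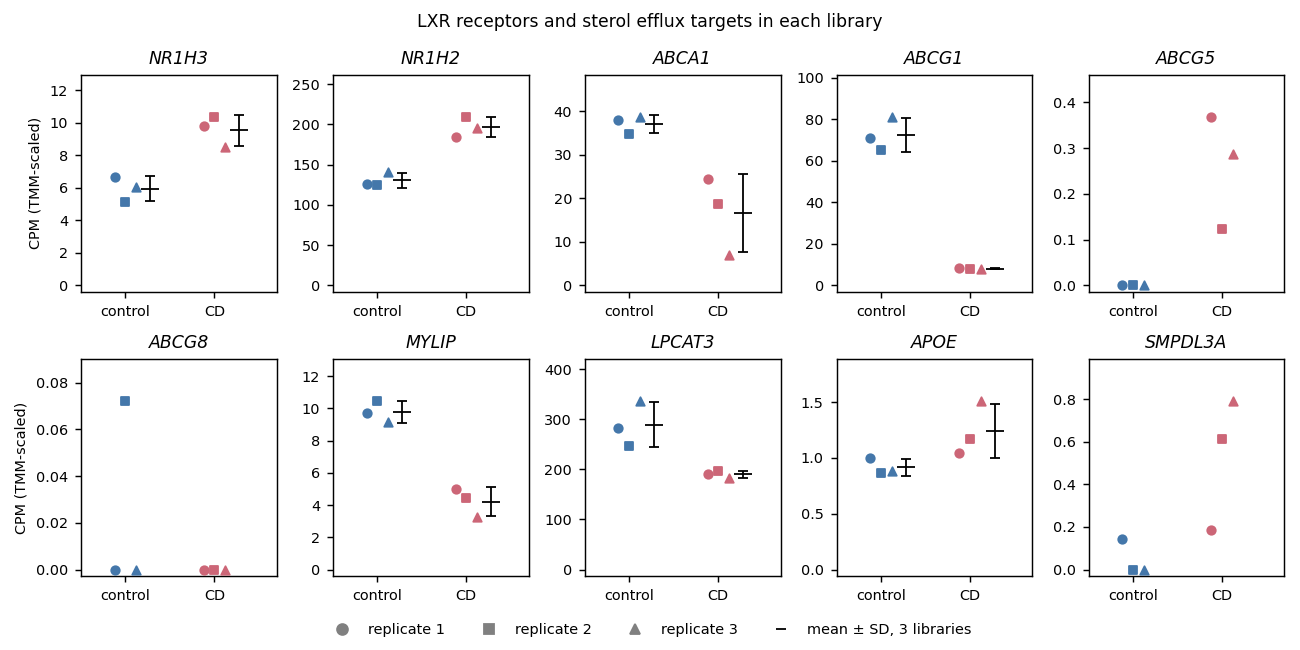
CPM (y axis, TMM-scaled, from 0) of each of the 10 genes in the 3 control (blue) and 3 CD (red) libraries, where the marker shape is the replicate and the black line the mean ± SD of the 7 tested genes. ABCG1 lay between 65.2 and 81.3 CPM in control and between 7.92 and 8.36 CPM in CD, and of the 7 tested genes ABCA1 had the widest relative spread among the CD libraries, from 6.92 to 24.4 CPM.

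NR1H3 (ENSNVIG00000011492) encodes LXRα, the form found mainly in liver, fat, gut and macrophages. It stood at 6.66, 5.13 and 6.06 CPM in control replicates 1 to 3 and at 9.77, 10.4 and 8.50 CPM in CD replicates 1 to 3. The CD values were all higher than the control values, and the mean went from 5.95 ± 0.772 to 9.55 ± 0.954 CPM (SD, n = 3). The rise was 1.60-fold (log2 fold change 0.68, SE 0.19, edgeR FDR 0.0127). It rests on 274 reads in control and 446 in CD and was no longer called without control replicate 2 (log2 fold change 0.58, FDR 0.0651) or without CD replicate 2 (0.59, FDR 0.0567).

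NR1H2 (ENSNVIG00000016627) encodes LXRβ, the form present in most tissues. Its values were 126, 124 and 141 CPM in control and 184, 209 and 196 CPM in CD. The lowest CD library was above the highest control library, and the means were 130.4 ± 9.51 and 196 ± 12.6 CPM (SD, n = 3). NR1H2 rose 1.51-fold (log2 fold change 0.59, SE 0.11, edgeR FDR 0.00165) and was called under each of the 14 alternative settings that were run. The log2 ratio of NR1H3 to NR1H2 reads within a library differed by 0.09 between CD and control (exact permutation test over the 6 libraries, two-sided p = 0.5, where 3 against 3 cannot go below 0.1). This ratio, like that of the transporters below, was chosen after the values were seen, and it compares changes and not levels, since gene lengths were not at hand.

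ABCG1 (ENSNVIG00000005652) is a transporter that moves cholesterol towards high-density lipoprotein (HDL) particles and is a direct target of LXR. It was measured at 70.8, 65.2 and 81.3 CPM in control and at 8.36, 8.16 and 7.92 CPM in CD. The 3 CD libraries were nearly equal and far below each control library. The mean fell from 72.4 ± 8.16 to 8.15 ± 0.217 CPM (SD, n = 3), which was 8.88-fold lower (log2 fold change -3.15, SE 0.14, edgeR FDR 3.11e-07). Of the 12148 tested genes 0.403% had a log2 fold change at or below that of ABCG1, a set of 49 genes that includes ABCG1 and of which 49 were called. Across the 14 alternative settings the log2 fold change stayed between -3.22 and -3.06, with a call in each.

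ABCA1 (ENSNVIG00000006505) hands cholesterol and phospholipid to lipid-poor apolipoprotein A-I, the first step in forming HDL. Control libraries held 37.9, 34.8 and 38.7 CPM, and CD libraries 24.4, 18.8 and 6.92 CPM. All CD values were below all control values, but CD replicate 3 was much lower than the other two, and the highest CD library was 3.53 times the lowest. The means were 37.1 ± 2.09 and 16.7 ± 8.92 CPM (SD, n = 3), a fall of 2.22-fold (log2 fold change -1.15, SE 0.34, edgeR FDR 0.0197). The coefficient of variation among the CD libraries was 53.5% for ABCA1, against 5.64% among its controls and a median of 17.0% over the CD libraries for all tested genes, and 2.98% of tested genes had a higher value. Without CD replicate 3 the fall was 1.77-fold (log2 fold change -0.82, SE 0.14, FDR 1.15e-06). The ABCA1 call was lost without control replicate 2 (-1.20, FDR 0.0504), without control replicate 3 (-1.12, FDR 0.0674) and with no filter on low counts (-1.15, FDR 0.115).

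The 2 transporters were also compared within each library. The log2 ratio of ABCG1 to ABCA1 reads was 0.90, 0.91 and 1.07 in the control libraries and -1.55, -1.20 and 0.20 in the CD libraries. CD replicate 3, where ABCA1 was lowest, was nearest to the controls, and the groups did not overlap. The difference of the means was -1.81 (p = 0.1 in the exact permutation test, two-sided, which is as low as 3 against 3 can reach).

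ABCG5 (ENSNVIG00000016408) and ABCG8 (ENSNVIG00000016453) form together a transporter that secretes sterols into bile and the gut lumen, and both were close to undetected. ABCG5 had 0 reads in each control library and 6, 2 and 4 reads in CD replicates 1 to 3. Set against a floor of 3 reads over the control group, ABCG5 was at least 3.96-fold higher in CD. The lower limit of the exact Clopper-Pearson 95% interval of the ratio was 2.75, and such intervals and floors cover counting error only. The bound fell to 2.39 without control replicate 3, the deepest library. ABCG8 had 1 read in control replicate 2 and none in the other five libraries. Both groups were thus under the floor of 3 reads, which stands for 0.0653 CPM in control and 0.0646 CPM in CD, and no fold is given. A difference in ABCG8 was not detectable at this depth.

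MYLIP (ENSNVIG00000019758) encodes the ubiquitin ligase IDOL, by which LXR sends lipoprotein receptors to degradation. MYLIP was at 9.74, 10.5 and 9.15 CPM in control and at 4.98, 4.42 and 3.24 CPM in CD. The highest CD library was well under the lowest control library. The mean fell from 9.79 ± 0.668 to 4.21 ± 0.886 CPM (SD, n = 3), or 2.31-fold (log2 fold change -1.21, SE 0.21, edgeR FDR 0.000928). The call held in the 14 alternative settings, with log2 fold changes between -1.33 and -1.09.

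LPCAT3 (ENSNVIG00000024614) is the acyltransferase that puts polyunsaturated chains into membrane phospholipids. LPCAT3 was measured at 282, 248 and 337 CPM in control and at 190.3, 197 and 183 CPM in CD. Here the controls were the more scattered group, and no CD library reached them. The means were 289 ± 45.2 and 190.2 ± 7.30 CPM (SD, n = 3), a fall of 1.52-fold (log2 fold change -0.60, SE 0.13, edgeR FDR 0.00362) that was called in the 14 alternative settings, between -0.71 and -0.48.

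APOE (ENSNVIG00000007616), the apolipoprotein that carries lipid out of macrophages and astrocytes, was near the limit of the test. APOE had 14, 12 and 16 reads in control and 17, 19 and 21 in CD, where the last 3 stand for 1.04, 1.17 and 1.51 CPM. After scaling for depth, the lowest CD value was just above the highest control value. The means were 0.917 ± 0.0746 and 1.24 ± 0.243 CPM (SD, n = 3), with a log2 fold change of 0.43 (SE 0.28, edgeR FDR 0.232), and 2 SE to either side ran from -0.13 to 0.98. Neither a moderate rise nor no change could be told apart from this at the depth of these libraries. Without CD replicate 3 the APOE log2 fold change was 0.24.

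SMPDL3A (ENSNVIG00000019518) encodes a secreted phosphodiesterase that is induced by LXR in human macrophages. SMPDL3A had 2, 0 and 0 reads in control and 3, 10 and 11 reads in CD. CD replicate 1 was close to control replicate 1 and the other two CD libraries were above. The ratio of scaled counts over the groups was 11.9, with an exact Clopper-Pearson 95% interval of 2.95 to 104 that covers counting error only. The SMPDL3A ratio of counts was 7.18 without control replicate 3, and it was at least 5.51 against the floor of 3 reads without control replicate 1, which held both control reads. Without the filter on low counts, edgeR gave an FDR of 0.00493 for SMPDL3A and 0.00795 for ABCG5, DESeq2 gave 0.0320 and 0.0393, and ABCG8 was not called by edgeR (FDR 0.481). The fitted fold changes of such genes depend on the prior count and are not used.

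**Figure D2:**
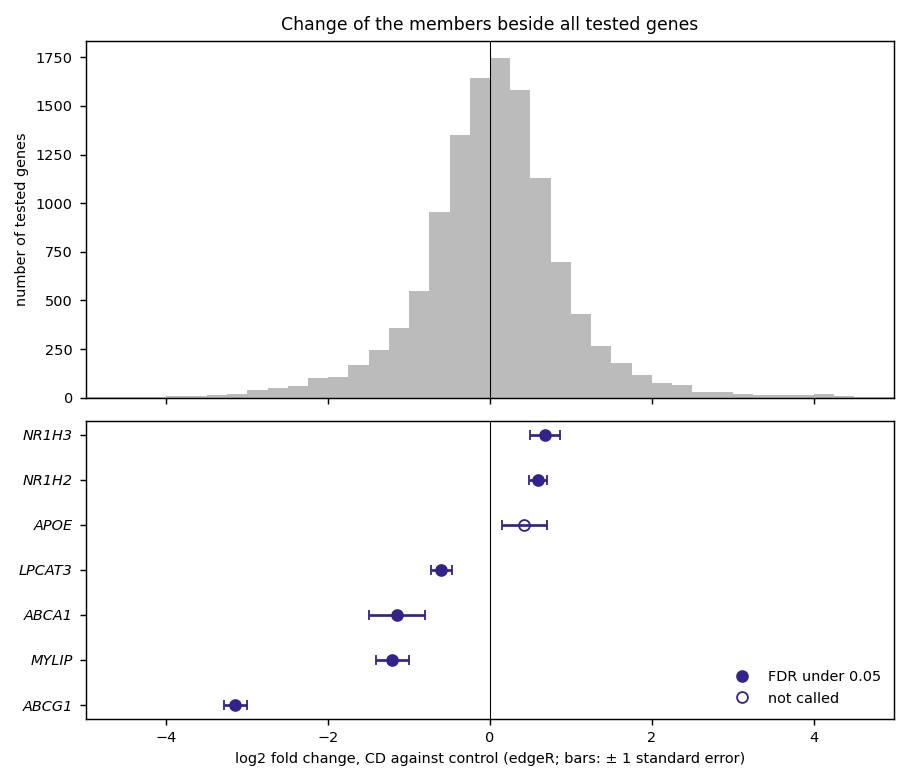
Histogram of the log2 fold change (x axis, CD against control, edgeR) over the 12148 tested genes, with the number of genes on the y axis, and below it the 7 tested genes of the set as points ± 1 SE (31 tested genes lie beyond the axis ends). ABCG1 sits in the far left tail at -3.15, and the other six lie between -1.21 and 0.68, where many genes do.

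The histogram of all tested genes sets these sizes in their background: the median absolute log2 fold change was 0.47 and the median SE 0.18. NR1H2, NR1H3 and LPCAT3 moved by slightly more than that median, ABCA1 and MYLIP by more, and APOE by slightly less.

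**Figure D3:**
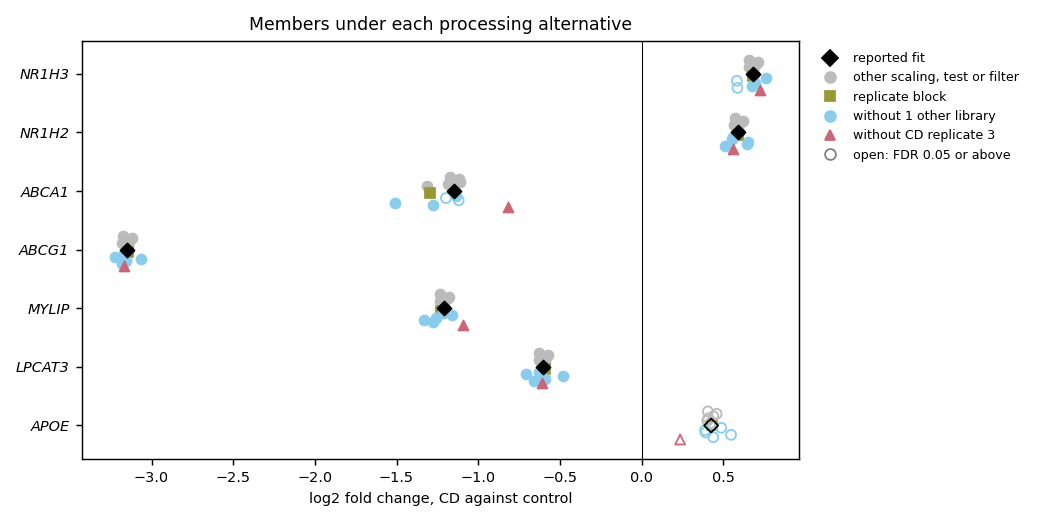
Log2 fold change (x axis, CD against control) of the 7 tested genes under the reported fit and each alternative setting, with filled points for an FDR under 0.05 and open points otherwise. ABCG1, MYLIP, LPCAT3 and NR1H2 have filled points throughout, ABCA1 and NR1H3 have open points under 3 and 2 alternatives, and no gene changes sign.

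The plot of alternative settings shows which of these calls were kept under every alternative. ABCG1, MYLIP, LPCAT3 and NR1H2 were called in 14 of 14 alternatives, NR1H3 in 12 and ABCA1 in 11, while APOE was called in none of the 13 in which it was tested. The same fits by DESeq2 called both receptors higher and ABCA1, ABCG1, MYLIP and LPCAT3 lower, with ABCG5 and SMPDL3A added as higher.

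The genes around the receptors were described from lists of known partners, targets and enzymes. LXR acts with a retinoid X receptor and with coactivators (the NCOA family, EP300, CREBBP) or corepressors (NCOR1, HDAC3, GPS2). Of 15 such genes, 12 were found and tested, of which 3 were higher in CD and 9 were not called, with a median log2 fold change of 0.05. None was lower by edgeR, nor at an unadjusted p under 0.05 (0 genes), nor by DESeq2 (0 genes). RXRB, a partner receptor, rose from 62.1 ± 3.24 to 95.5 ± 5.45 CPM (SD, n = 3; log2 fold change 0.62, SE 0.11, edgeR FDR 0.00128), and its groups did not overlap. The coactivator NCOA1 stood at 13.8, 11.9 and 12.7 CPM in control and at 35.0, 31.8 and 17.1 CPM in CD, where replicate 3 was the lowest (log2 fold change 1.13, SE 0.25, FDR 0.00378). NCOA2, another coactivator, was called at 0.74 (SE 0.26, FDR 0.0415) but in only 6 of 14 alternatives. Without CD replicate 3, the log2 fold changes of NCOA1 and NCOA2 were 1.35 and 0.96, and 6 genes of this list were higher. RXRA, the partner usually named with LXR, had a log2 fold change of -0.04 (FDR 0.848).

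Further LXR targets serve fatty acid synthesis and lipid transport, and several are targets of SREBP as well. Of 17 genes, 13 were found and 8 tested. Of these 3 were higher, 1 was lower and 4 were not called, and the median log2 fold change was 0.28. SREBF1, which encodes the SREBP-1 factors, was at 634, 582 and 785 CPM in control and at 399, 424 and 372 CPM in CD. Each CD library was under each control library, and SREBF1 fell by 0.74 on the log2 scale (SE 0.14, edgeR FDR 0.00146). The fatty acid synthase FASN rose from 3251 ± 793 to 6167 ± 1477 CPM (SD, n = 3, log2 fold change 0.92, SE 0.22, FDR 0.00662), with 1.08 without CD replicate 3. SCD, a desaturase, rose from 976 ± 135 to 1429.8 ± 126 CPM (SD, n = 3, log2 fold change 0.55, FDR 0.00843). ACACA, which makes the malonyl-CoA that FASN uses, had a log2 fold change of -0.04 (FDR 0.917) with overlapping groups, and it was 0.26 (FDR 0.0467) without CD replicate 3. RNF145, a ubiquitin ligase induced by LXR, rose by 0.62 (FDR 0.0103). The calls of SCD and RNF145 were lost without control replicate 1 (FDR 0.0554 and 0.0564). LPL, which splits lipoprotein triglyceride, had a log2 fold change of -0.42 and was not called (FDR 0.0882), but it was called without CD replicate 1 (-0.61, FDR 0.0141). MLXIPL and CYP7A1, known mainly from liver, had 0 reads in all 6 libraries.

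The sterol ligands of LXR are made by hydroxylases and by late steps of cholesterol synthesis. Of 11 enzymes that make or remove them, 9 were found and 4 had enough reads to be tested. Of those 3 were higher in CD and 1 was not called, and the median log2 fold change was 0.90. None of the 4 tested enzymes was lower by edgeR or at an unadjusted p under 0.05 (0 genes), and DESeq2 called 0 genes lower. SULT2B1, below the filter on low counts, had 20, 8 and 18 reads in control and 6, 10 and 6 in CD. HSD3B7, which takes oxysterols on towards bile acids, was at 20.4, 18.1 and 24.2 CPM in control and at 48.0, 56.1 and 57.7 CPM in CD (log2 fold change 1.36, SE 0.15, edgeR FDR 6.11e-05). LSS, which closes the sterol ring, rose by 1.13 (SE 0.17, FDR 0.000370). CYP27A1, which makes 27-hydroxycholesterol, had a log2 fold change of 0.11 (SE 0.12) and was not called. The other hydroxylases were barely seen, with 1 read for CH25H and 2 reads each for CYP46A1, CYP11A1 and CYP7B1 over the 6 libraries.

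MYLIP acts on lipoprotein receptors, among them VLDLR and LRP8, with the help of UBE2D enzymes. Of 8 genes in this list, 5 were found and tested, with 2 higher and 3 not called and a median log2 fold change of 0.22. None was lower by edgeR, at an unadjusted p under 0.05 (0 genes) or by DESeq2 (0 genes). VLDLR, the very-low-density lipoprotein receptor, stood at 15.4, 10.7 and 13.1 CPM in control and at 74.0, 68.0 and 59.0 CPM in CD. The groups were far apart, and VLDLR rose 5.13-fold (log2 fold change 2.36, SE 0.17, edgeR FDR 3.55e-06). UBE2D2, a ubiquitin-conjugating enzyme, rose by 0.45 (SE 0.14, FDR 0.0215) and was called in 10 of 14 alternatives, not with the replicate block (FDR 0.0664) or without any 1 of the control libraries (FDR 0.0518 to 0.118). LRP8 had a log2 fold change of -0.50 (FDR 0.105) and was called without CD replicate 1 (-0.75, FDR 0.0127) or CD replicate 3 (-0.29, FDR 0.0401). These are mRNA values, and MYLIP acts on the receptor proteins.

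Among 7 HDL acceptors and efflux partners, 6 were found and 3 tested, with 1 higher, 1 lower and 1 not called and a median log2 fold change of -0.06. SNTB1, a syntrophin that binds ABCA1 at the membrane, was at 7.59, 8.53 and 9.26 CPM in control and at 2.03, 1.41 and 0.576 CPM in CD. It was 6.20-fold lower (log2 fold change -2.63, SE 0.33, edgeR FDR 0.000145). Without CD replicate 3 the SNTB1 log2 fold change was -2.33. LCAT, which esterifies cholesterol on HDL, rose by 0.47 (SE 0.16, FDR 0.0349) but was called in only 9 of 14 alternatives, with 0.28 without CD replicate 3 (FDR 0.0614). The HDL receptor SCARB1 had a log2 fold change of -0.06 (FDR 0.723), and APOA1 had 2 reads in all.

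The 8 paralogs of LPCAT3 and SMPDL3A were all tested, and 3 were higher, 1 was lower and 4 were not called, with a median log2 fold change of 0.20. SMPDL3B, the close relative of SMPDL3A, had 138, 114 and 139 CPM in control and 250.1, 301 and 279 CPM in CD, a rise of 2.12-fold (log2 fold change 1.08, SE 0.13, edgeR FDR 8.45e-05). LPCAT1, which acylates lysophosphatidylcholine, rose by 0.56 (SE 0.12, FDR 0.00351), and SMPD1, the acid sphingomyelinase, by 0.33 (SE 0.12, FDR 0.0406, called in 6 of 14 alternatives). MBOAT2, another lysophospholipid acyltransferase, fell by 0.52 on the log2 scale as LPCAT3 did (SE 0.12, FDR 0.00517), and LPCAT4 had a log2 fold change of -0.28 (FDR 0.116), or -0.42 without CD replicate 3 (FDR 0.00140). The sources used here do not say how reads shared by close paralogs were counted.

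**Figure D4:**
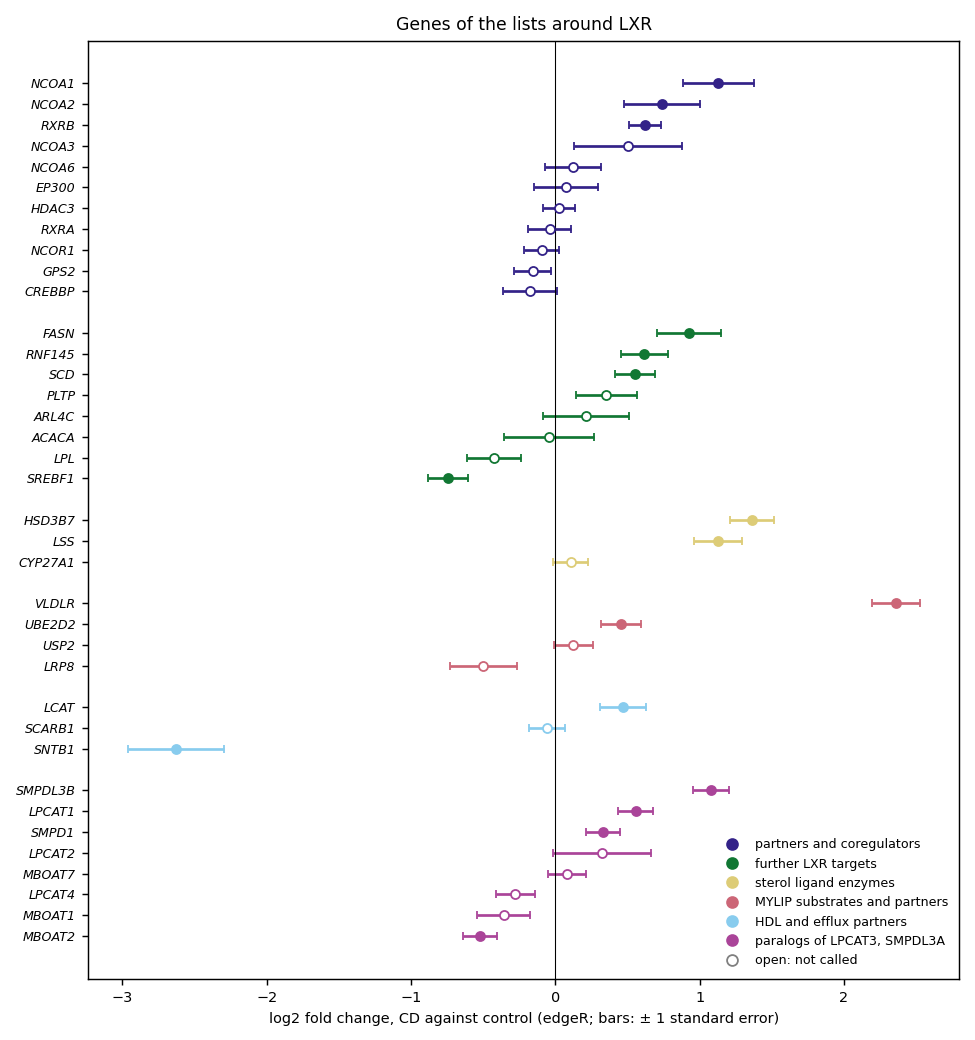
Log2 fold change (x axis, CD against control, edgeR) ± 1 SE of tested genes of 6 lists around LXR, coloured by list, with open points for genes not called at an FDR under 0.05. VLDLR at 2.36 and SNTB1 at -2.63 lie farthest from 0, and most LXR partners and coregulators lie near it.

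The plot of the lists around LXR shows log2 fold changes on both sides of 0 within each list other than the sterol ligand enzymes. For NCOA1 and SNTB1, as for ABCA1, CD replicate 3 was the lowest of the CD libraries.

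LXR targets are strongly expressed in macrophages, and markers of other cell types were therefore read beside these results. Of 8 macrophage and leukocyte markers, 3 were tested, and CD68, CSF1R and CD14 rose by 1.85, 2.16 and 2.37 on the log2 scale. CD14 had only 2, 1 and 4 reads in control and 12, 15 and 11 in CD. The summed level of the list went from 5.71 to 6.89 CPM in control to 21.9 to 27.0 CPM in CD, with 0 reads for AIF1 and 1 read each for PTPRC, ADGRE1 and CD163. Most of this sum was CD68 alone, at 5.13 to 5.62 CPM in control and 16.9 to 22.4 CPM in CD. Of 8 epithelial markers, 6 were found and 3 tested: CLDN4 rose by 3.55, and KRT7 and KRT19 fell by 2.50 and 1.03 on the log2 scale. Their summed level was 7726 to 8377 CPM in control and 1484 to 1952 CPM in CD, and CDH1, EPCAM and CLDN7 had only 26, 9 and 5 reads in all. Of 7 fibroblast markers, 5 were tested and 4 fell, of which COL1A2 was called in only 8 of 14 alternatives (309.9 to 387 CPM summed in control, 183 to 232 CPM in CD). The untested LUM and DCN went the other way. LUM had 1, 2 and 4 reads in control and 9, 14 and 12 in CD, and DCN 0, 1 and 2 against 1, 8 and 6. Of 5 endothelial markers, VWF rose by 3.38 and TEK fell by 1.08 (206 to 221 CPM in control, 75.9 to 124 CPM in CD), and CDH5 had 1 read. VWF had only 2, 0 and 3 reads in control and 15, 27 and 14 in CD. The part of these shifts in the results above was not tested, and in bulk RNA fewer cells of a kind and less RNA per cell cannot be told apart.

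The genes whose levels followed ABCA1 and NR1H3 most closely were read from the Pearson correlation of log2(CPM + 0.5) over the 6 libraries, as a description. For ABCA1 these were MYO10 (r = 0.998, log2 fold change -0.76), ANKRD52 (r = 0.997, -1.24) and PRDM10 (r = 0.997, -0.51), and 337 of 10088 genes with a symbol had an r over 0.95. For NR1H3 they were ZFAND3 (r = 0.996, 0.64), DSP (r = 0.995, 1.46) and CHST11 (r = 0.992, 1.56), and 298 genes had an r over 0.95. The points share the same 2 groups of 3 libraries, so that any gene with a like difference between the groups correlates.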

How the data were processed

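The deposited count table held raw counts of reads per gene for 3 control and 3 CD libraries; the authors had trimmed the reads with fastp 0.20.1 and aligned them with STAR 2.7.2a to the mink assembly (DESeq2 1.30.1 in R 4.0.3 served for their normalization, and those normalized files were not used here). The libraries were poly(A)-selected and made with Nextera XT. The counting program and its use of strand are not given in the sources used here, so reads of overlapping or antisense genes cannot be told apart. The 4 rows that name no gene (29.3% to 47.2% of reads) were left out.

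Genes were kept by edgeR's filterByExpr (minimum count 10, minimum total 15) and tested with edgeR 4.0.16 (TMM, robust quasi-likelihood fit, condition only) in R 4.3.3, with Benjamini-Hochberg adjustment over all tested genes and a threshold of 0.05. The scripts were tested on simulated data. Alternatives were DESeq2's size factors, upper-quartile and total-count scaling, DESeq2 1.42.0, limma-voom 3.58.1, no filter, a filter of at least 50 counts in 3 libraries, a block for the replicate number, and each library left out. Low-count genes were given as summed counts with Clopper-Pearson 95% intervals or a floor of 3 counts over the group.

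The genes, lists and tests were chosen with earlier results of these data known. All 10 genes were named, and by rule of the other lists each called gene and the gene with the smallest p that was not called. RXRA, ACACA, CYP27A1, SCARB1, SULT2B1, LUM, DCN and the genes at or near 0 reads are named besides, chosen after their values were seen. Some genes of these lists are counted but not reported here by name.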

Additional observations from a re-analysis of the deposited data

How the results depend on the processing

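Over the 14 alternatives, 92 of 97 values of the 7 tested genes kept their direction and side of the threshold, 5 lost the call and 0 reversed, and 689 of 737 values of the other lists kept theirs. The cause of the lost calls was not tested; each fit without a library has fewer samples.

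NR1H3 ran from 0.58 to 0.76 and ABCA1 from -1.51 to -0.82 when 1 library was left out, and ABCA1 was not called with no filter (-1.15). Genes of the set called higher numbered 4 with DESeq2 and 4 with no filter, where ABCG5 and SMPDL3A enter the test, and 1 to 2 with a library left out. The bound for ABCG5 ran from 2.39 (without control replicate 3) to 5.08, and the SMPDL3A ratio of counts from 5.51 (without control replicate 1, against the floor) to 16.0.

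With a library left out, LXR partners called higher numbered 2 to 6 (6 without CD replicate 3). Further LXR targets called higher numbered 1 to 4, and those called lower 1 to 2. Ligand enzymes called lower numbered 0 to 1. In the MYLIP list 1 to 3 genes were higher and 0 to 1 lower. HDL partners called higher numbered 0 to 1, and paralogs called lower 1 to 2. HDL partners called lower were 2 with DESeq2 and 2 with no filter. ACACA reversed without CD replicate 3 (log2 fold change 0.26, FDR 0.0467, against -0.04 with all libraries), and the ACACA log2 fold change ran from -0.37 to 0.26 with a library left out.

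Deviations of same-numbered libraries correlated at -0.020, -0.396 and -0.197, and those of differently numbered libraries at -0.023 to 0.309. These values show no sign of pairing by replicate number, but with 3 libraries in each group they cannot show that there was none. With the replicate block 2772 genes were higher and 2636 lower, LXR partners called lower numbered 1, further targets called lower 2 and MYLIP-list genes called higher 1, and no call of the 7 tested genes changed.

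The depth of 13473820 to 18633764 reads limits ABCG5, ABCG8, SMPDL3A and APOE.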

Other observations

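The gene order of the RefSeq assembly at hand (used for order only, not the build of the count table) has an entry for 9 of the 10 genes. ABCG5 and ABCG8 were next to each other there, between DYNC2LI1, a dynein light intermediate chain, and LRPPRC, a factor for mitochondrial mRNA. DYNC2LI1 rose by 1.24 (edgeR FDR 0.000399) and LRPPRC fell by 0.84 on the log2 scale (FDR 0.00297). Of the 10 tested neighbours of the 9 genes, 3 were higher in CD, 5 were lower and 2 were not called. Among all tested genes 24.8% were called higher and 22.9% lower. TOMM40, the mitochondrial import pore next to APOE, fell by 1.27 (FDR 8.78e-05), and POLD1, a DNA polymerase subunit next to NR1H2, fell by 2.79 on the log2 scale (FDR 3.08e-07), while NR1H2 itself rose. EMG1, a ribosome biogenesis factor next to LPCAT3, fell by 0.83 on the log2 scale (FDR 0.000564). C1S, a complement protease on the other side of LPCAT3, rose by 0.52 (FDR 0.0122), and SLC44A1, a choline transporter next to ABCA1, rose by 0.71 (FDR 0.0415). ACP2, a lysosomal acid phosphatase next to NR1H3, fell by 0.39 on the log2 scale (FDR 0.0336). These neighbours were named after their values were seen.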
